A study of Homo sapiens with 7 samples.

Results

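Class I olfactory receptor genes encode the odorant receptors that mammals share with fish, and in the human genome they carry the names OR51, OR52, OR55 and OR56. The members described here are the protein-coding genes of GENCODE 44 (hg38) whose name is one of these 4 stems followed by a letter and a digit. The rule found 57 of 20033 protein-coding genes, of which 23 are OR51 genes, 27 OR52 genes, 7 OR56 genes and 0 OR55 genes. All 57 lie in a single cluster on chromosome 11. OR51C1P and OR56B2P carry the P of a pseudogene name but are typed as protein-coding in the annotation, and both were kept.

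Odorant receptors are G protein-coupled receptors of sensory neurons in the nose, where each mature neuron expresses a single receptor allele and keeps the rest of the family silent. They signal through an olfactory G protein, adenylyl cyclase and cyclic nucleotide-gated channels. H3K27me3 is deposited by the Polycomb repressive complex 2 and marks facultative heterochromatin, while H3K9me3 marks constitutive heterochromatin and is also known to cover receptor clusters in olfactory neurons. Both marks can spread over broad domains that hold many genes.

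The cells were HCT116, an epithelial line from a human colorectal carcinoma and so not olfactory tissue. Every group carried a doxycycline-inducible shRNA against UHRF1, the ubiquitin ligase that guides maintenance DNA methylation, and was kept for 14 days without doxycycline, so the hairpin was not induced. Clone 3 and Clone 6 are each a clonally expanded line, with 2 H3K27me3 immunoprecipitations per clone, 2 H3K9me3 immunoprecipitations of Clone 3 and 1 input of Clone 3. H3K9me3 of Clone 6 on its own was not analysed here and enters only through the clone-shared set. The data are 5 sets of domain coordinates, namely Clone 3 H3K27me3, Clone 6 H3K27me3, clone-shared H3K27me3, Clone 3 H3K9me3 and clone-shared H3K9me3. Each clone set keeps the domains shared by its replicates, the clone-shared sets keep those shared by the clones, and none holds reads. A gene outside a set may still have lain in a domain of a single replicate. The study's methods state a minimum sequencing depth per library, but the depth behind a given domain cannot be read from the sets, and no replicate error or test of a difference could be attached to any value. Neighbouring members share domains and are not independent of each other. The files hold no expression, so nothing here says whether a receptor was transcribed.

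A gene was counted in a domain when its start site, the 5′ end of its gene record, lay inside it. In Clone 3, 47 of 57 class I genes (82.5%) started in an H3K27me3 domain, where 1290 of all 20033 protein-coding genes (6.44%) did. In Clone 6 the count was 46 of 57 (80.7%), against 1597 of all genes (7.97%). The clone-shared H3K27me3 set held 46 of 57 members (80.7%) and 1066 of all genes (5.32%). No member started in an H3K9me3 domain, with 0 of 57 in the Clone 3 set, where 672 of all genes (3.35%) did, and 0 of 57 in the clone-shared set, where 650 (3.24%) did. Starts of the Ensembl canonical transcripts in place of the gene records left the members' 5 counts at 47, 46, 46, 0 and 0. The matching shares of all genes were 6.47%, 8.0%, 5.35%, 3.35% and 3.23%.

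**Figure D1:**
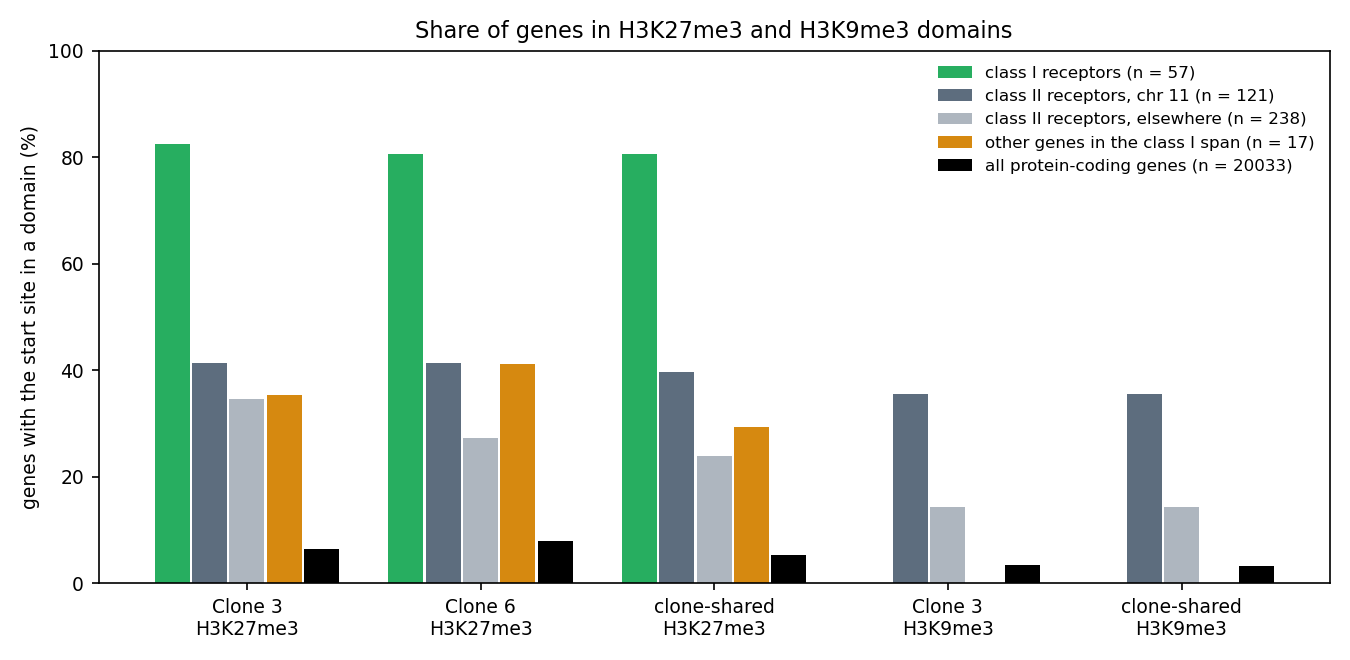
Percent of genes whose start site lay in a domain, for each of the 5 domain sets. Bars stand for class I receptors, class II receptors on chromosome 11 and elsewhere, other genes that start within the class I cluster, and all protein-coding genes. The class I bars reach 80.7 to 82.5% in the H3K27me3 sets and 0 in both H3K9me3 sets.

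Class II receptors, the larger and tetrapod-specific branch of the family, are set beside the class I genes with no test. On chromosome 11, 50 of 121 class II genes (41.3%) started in a Clone 3 H3K27me3 domain, 50 (41.3%) in a Clone 6 domain and 48 (39.7%) in a clone-shared domain. The class II genes of chromosome 11 also fell in H3K9me3 domains, with 43 of 121 (35.5%) in each H3K9me3 set. Off chromosome 11, 82 of 238 class II genes (34.5%) lay in Clone 3 H3K27me3, 65 (27.3%) in Clone 6 H3K27me3 and 57 (23.9%) in the shared set. There, 34 of 238 (14.3%) lay in H3K9me3 in each set. Class II genes sit in several clusters, whereas the class I genes are 1 locus, and whether the families differ cannot be tested on these sets.

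The class I cluster runs from the start of OR52B4 to that of OR52W1, chr11:4368386-6199224, over 1.831 Mb. Of the members, 29 are on the plus strand and 28 on the minus strand, and neighbouring start sites are a median of 27.3 kb apart. The longest interval between neighbouring starts is 146 kb. OR51C1P and OR51E2, both on the minus strand, start 0.001 kb apart and overlap, so by start site they are a single position, although their start codons, at 4697661 and 4682711, are apart. In 21 members the annotated start is the start codon itself, so their true transcription start may lie further upstream.

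H3K27me3 domains covered 75.8% of the cluster span in Clone 3 (1.39 Mb), 77.9% in Clone 6 (1.43 Mb) and 75.0% in the clone-shared set (1.37 Mb). The same sets covered 18.0%, 17.2% and 14.1% of the gap-free sequence of chromosome 11, and 13.1%, 12.6% and 10.0% of the gap-free genome. H3K9me3 domains covered none of the span, although they covered 20.4% of chromosome 11 in Clone 3 and 19.6% in the shared set. No Clone 3 H3K9me3 domain lay before the cluster on this chromosome. The nearest H3K9me3 domain of Clone 3 began at 20888001, 14.7 Mb beyond OR52W1. Members' distances to it ranged from 14700 to 16500 kb.

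**Figure D2:**
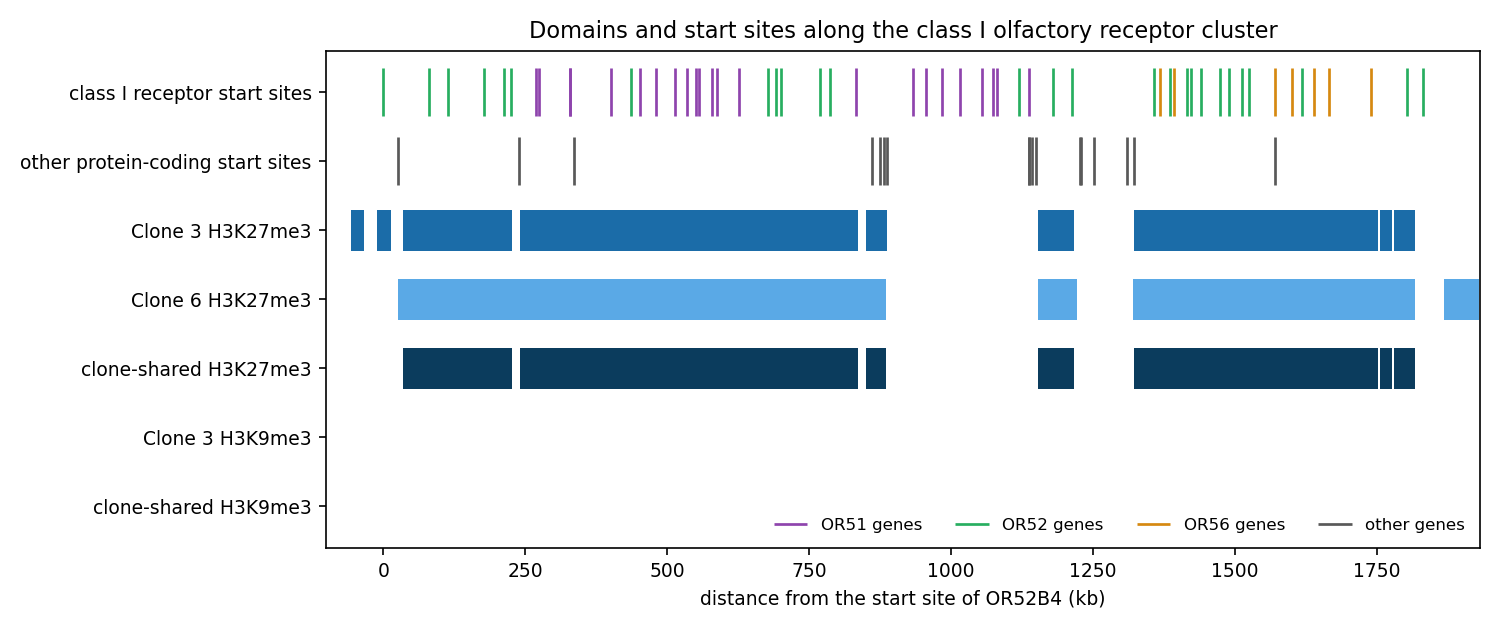
Map of the class I cluster, with distance from the OR52B4 start site in kb on the horizontal axis. The upper rows mark start sites of OR51, OR52 and OR56 genes and of other protein-coding genes, and the lower rows draw the domains of the 5 sets. H3K27me3 domains fill 3 blocks separated by a central gap and a shorter gap beside the TRIM genes, and both H3K9me3 rows are empty.

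The H3K27me3 domains formed 3 blocks in both clones, a long block over the first members, a short block in the middle and a long block at the far end. In Clone 6 each block was a single domain, and in Clone 3 the outer blocks were divided by gaps of 3 to 15 kb, with a separate small domain at OR52B4 ahead of them. The 47 Clone 3 members lay in 6 domains and the 46 Clone 6 members in 3 domains.

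In Clone 6 the long first block was chr11:4394001-5254000, a domain of 860 kb that held 26 members from OR52K2 to OR51V1. It ranked 74 of 1959 Clone 6 H3K27me3 domains by length and 2 by the number of protein-coding genes it held, which was 31. The median length in this set was 78 kb. Each domain of a clone set carries 2 scores given by the authors, whose scale the sources used here do not name. The 860-kb domain scored 412.3 and 340.6, and the median of the lower score in the set was 27.8.

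In Clone 3 the same stretch was divided. The domain chr11:4403001-4595000 (192 kb, scores 564.0 and 55.97) held the 5 members OR52K2, OR52K1, OR52M1, OR52I2 and OR52I1. After a gap of 15 kb, chr11:4610001-5205000 (595 kb, scores 564.0 and 162.7) held the 21 members from OR51D1 to OR51V1. They are OR51D1, OR51E1, OR51C1P, OR51E2, OR51F1, OR52R1, OR51F2, OR51S1, OR51T1, OR51A7, OR51G2, OR51G1, OR51A4, OR51A2, OR51L1, OR52J3, OR52E2, OR52E1, OR52A5, OR52A1 and OR51V1. This 595-kb domain ranked 129 of 2600 by length and 3 by gene number, in a set with a median length of 58 kb and a median lower score of 23.6. A further Clone 3 domain of 36 kb, chr11:5219001-5255000, held no member and 4 other protein-coding genes. The value 564.0 stood on both domains beside the 15-kb gap and 162.7 on both beside the 14-kb gap. The domains on either side of these short gaps therefore carried 1 score in common, and whether it was measured over a wider domain in a single replicate was not tested. Within the cluster, domains separated by the 20-kb gap or by the longer gaps shared no score.

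The short middle block held OR52H1 and OR52B6 in both clones. It was chr11:5522001-5585000 in Clone 3 (63 kb, scores 51.3 and 16.5) and chr11:5522001-5590000 in Clone 6 (68 kb, scores 39.71 and 39.26). Its lower score was below the set median of 23.6 in Clone 3 and above that of 27.8 in Clone 6. The starts of the 2 domains are identical and the ends are 5 kb apart.

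The long last block was chr11:5688001-6186000 in Clone 6 (498 kb, scores 266.6 and 267.4), with 18 members from OR52P1 to OR52B2. In Clone 3 the domain chr11:5690001-6120000 (430 kb, scores 398.5 and 139.6) held 17 of them. They are OR52P1, OR56B1, OR52N4, OR56B2P, OR52N5, OR52N1, OR52N2, OR52E6, OR52E8, OR52E4, OR52E5, OR56A3, OR56A5, OR52L1, OR56A4, OR56A1 and OR56B4. OR52B2, the member that remains, lay in a separate Clone 3 domain of 37 kb, chr11:6149001-6186000 (scores 32.8 and 139.6). All 7 OR56 genes fell in this block. The 498-kb and 430-kb domains each ranked 4 in their set by the number of genes held.

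The edges of the blocks stood close together in the clones. Against the nearest Clone 3 edge, the Clone 6 edges from the first start to the last end differed by 9, 1, 0, 5, 2 and 0 kb. Domain edges fall on whole kb in every set, so differences of 0 and 1 kb are at the resolution of the coordinates. The clone-shared set held 7 domains in the span, 5 of them with members and at most 21 members in a domain.

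By clone, 46 members lay in H3K27me3 in both, 1 in Clone 3 alone, 0 in Clone 6 alone and 10 in neither. The member of Clone 3 alone was OR52B4, the first gene of the cluster. Its start was 10.4 kb inside a small Clone 3 domain, chr11:4358001-4383000 (25 kb, scores 22.96 and 21.66), and 25.6 kb outside the nearest Clone 6 domain. Both scores of that domain are below the set's median lower score of 23.6, and the score of 21.66 also stands on the neighbouring Clone 3 domain chr11:4311001-4334000. The gene is counted in Clone 3 through this single domain. With 1 set per clone, whether the clones differ at OR52B4 could not be tested.

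The 10 members in neither clone were 9 consecutive genes of the central gap and OR52W1. The gap genes are OR51B4, OR51B2, OR51B6, OR51M1, OR51Q1, OR51I1, OR51I2, OR52D1 and OR51B5, in the order of their start sites. Their gap was 267 kb long in Clone 3 (chr11:5255001-5522000) and 268 kb in Clone 6 (chr11:5254001-5522000). OR51M1 was the deepest in it, 129 kb from the nearest Clone 3 edge and 130 kb from the nearest Clone 6 edge. OR51B4 was 46.9 kb from the nearest Clone 3 edge and OR52D1 33.3 kb. OR51B5 was 16.3 kb from an edge by its gene record, which starts at 5505652 and extends far upstream of its canonical start at 5343524, and it lay in the gap by either start. OR52W1, the last gene of the cluster, began 13.2 kb beyond the end of the last block in both clones. Clone 6 had a further H3K27me3 domain past the cluster, chr11:6236001-6298000.

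**Figure D3:**
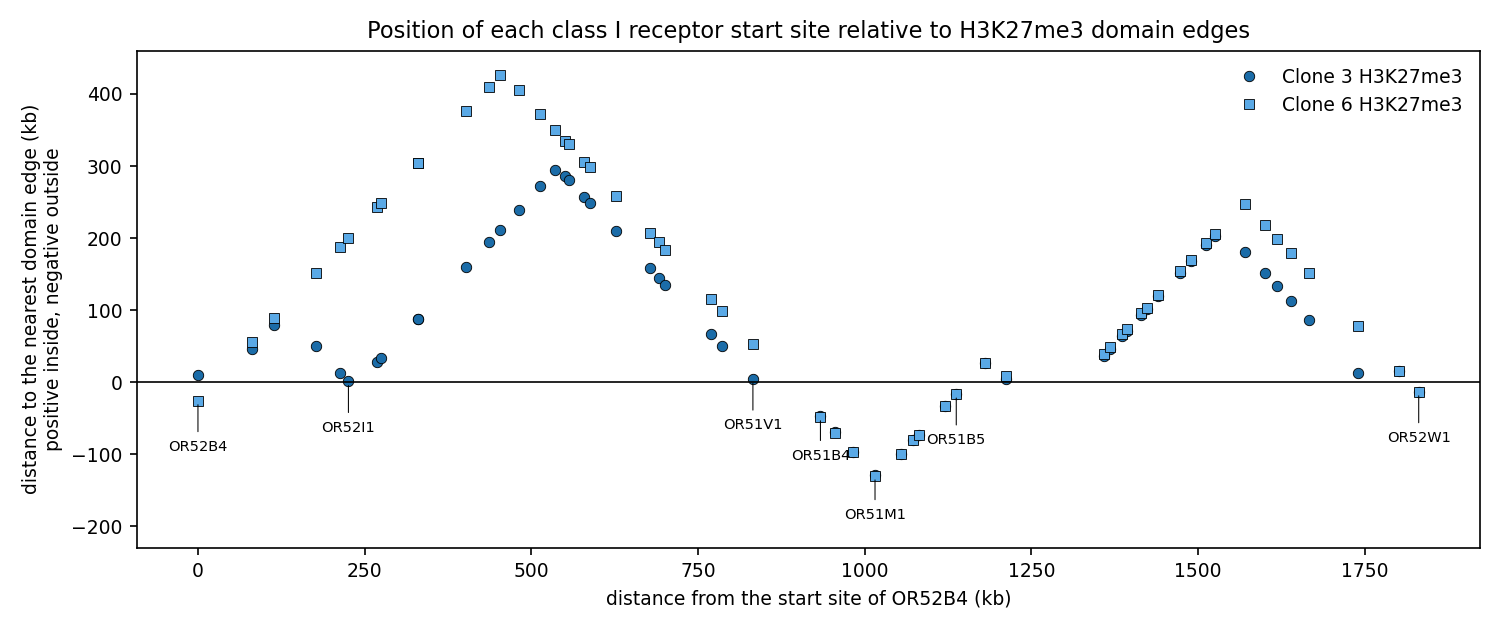
Distance in kb from each class I start site to the nearest H3K27me3 domain edge, positive inside and negative outside, against position along the cluster in kb from OR52B4. Circles are Clone 3 and squares Clone 6. The members of the central gap lie below 0 in both clones down to 129 and 130 kb from an edge, and OR52B4 is above 0 in Clone 3 and below 0 in Clone 6.

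The 47 Clone 3 members lay a median of 101 kb inside (range 0.962 to 294 kb), and the deepest was OR51A7. The 46 Clone 6 members lay a median of 190 kb inside (9.12 to 427 kb), and the deepest was OR51F2. The larger depths in Clone 6 go with its undivided domains. Gene bodies were fully covered for 46 members in Clone 3 and 46 in Clone 6, while 10 and 11 gene bodies had no base in a domain. The exception in Clone 3 was OR52I1, covered over 98.7% of its body.

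The members nearest to an edge inside a domain were OR52I1, OR52B6 and OR51V1. OR52I1 started 0.962 kb from the Clone 3 edge but 200.0 kb from the nearest Clone 6 edge, because that Clone 3 edge has no counterpart in Clone 6. OR52B6 was 4.12 kb inside in Clone 3 and 9.12 kb in Clone 6. OR51V1 was 4.32 kb inside in Clone 3 and 53.3 kb in Clone 6. Between 10 and 25 kb inside a Clone 3 edge lay OR52B4 (10.4 kb), OR56B4 (12.3 kb), OR52I2 (13.3 kb) and OR52B2 (15.7 kb). A shift of an edge by 10 kb outwards would have added no member in any set.

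The sequence just upstream of 4 members is printed here from the RefSeq promoter table (GRCh38.p14), since these genes lie at the ends of the cluster or beside the central gap. OR52B4 is the member that differed between the clones and OR51V1 the last member before the central gap. OR52H1 is the first member after that gap, and OR52W1 the member beyond the last block. Each is the 250 bases before the RefSeq start, 5′ to 3′ on the strand of the gene, with each CpG in capitals. For OR51V1 and OR52W1, unlike OR52B4 and OR52H1, that start is also the annotated start codon. Their windows may therefore lie downstream of the true transcription start, and the printed windows are not all at like positions. OR52B4 is read from the minus strand of chr11:4368387-4368636, OR51V1 from the minus strand of chr11:5200683-5200932, OR52H1 from the minus strand of chr11:5548541-5548790 and OR52W1 from the plus strand of chr11:6198974-6199223.

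OR52B4: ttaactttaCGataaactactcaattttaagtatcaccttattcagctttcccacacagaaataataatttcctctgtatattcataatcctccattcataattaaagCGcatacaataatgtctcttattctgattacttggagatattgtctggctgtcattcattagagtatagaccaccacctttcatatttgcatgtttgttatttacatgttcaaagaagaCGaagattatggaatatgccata

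OR51V1: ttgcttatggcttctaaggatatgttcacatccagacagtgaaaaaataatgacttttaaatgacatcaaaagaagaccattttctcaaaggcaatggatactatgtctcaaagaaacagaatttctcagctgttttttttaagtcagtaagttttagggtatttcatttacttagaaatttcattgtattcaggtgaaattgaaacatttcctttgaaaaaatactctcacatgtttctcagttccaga

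OR52H1: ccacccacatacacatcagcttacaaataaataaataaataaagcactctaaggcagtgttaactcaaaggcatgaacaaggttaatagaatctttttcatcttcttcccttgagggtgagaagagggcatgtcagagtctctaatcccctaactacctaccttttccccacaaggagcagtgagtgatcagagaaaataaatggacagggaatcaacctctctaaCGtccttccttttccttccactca

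OR52W1: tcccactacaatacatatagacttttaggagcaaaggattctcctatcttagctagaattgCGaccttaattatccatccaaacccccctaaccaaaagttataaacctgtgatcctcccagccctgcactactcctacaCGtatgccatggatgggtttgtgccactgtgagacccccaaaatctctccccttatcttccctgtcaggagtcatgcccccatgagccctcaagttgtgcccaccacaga

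These windows held 3, 0, 1 and 2 CpGs in that order, at 31.2%, 30.8%, 41.2% and 48.0% GC. The motif TAATTA, the core bound by many homeodomain factors and a palindrome, occurred once each upstream of OR52B4 and OR52W1 and was not found in the windows of OR51V1 and OR52H1. The motif CCCNNGGG, a core of the EBF factors of olfactory neurons and also the same on both strands, was in none of the 4 windows. A match describes the letters and not a bound site.

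Over the promoter table, 38 of 57 members matched, with 41 windows of 300 bases (250 before the start and 50 after). In several windows, such as those of OR51F1, OR52J3 and OR56A5, the RefSeq start is also the annotated start codon. Such windows may miss the true transcription start, and how common such starts are in the whole table is not given here. Apart from OR52B4 and OR52W1, the matched members all lay in H3K27me3 in both clones, so these values describe marked members and hold none of the central gap. The median class I window held 1 CpG, and the median over all 35116 windows of the table was 14. No CpG at all was present in 10 class I windows (24.4%), among them those of OR52K2, OR51F1, OR51A7, OR52J3 and OR56A5, compared with 3.96% of all windows. The class I window with the most CpGs was that of OR52N2, with 14. Median GC content was 40.0% in class I windows and 58.7% in all. TAATTA was in 7 class I windows (17.1%) and in 4.84% of all, and CCCNNGGG in 4 (9.76%) and 19.1% of all. The class I windows are poorer in GC than the table, TAATTA holds no G or C CCCNNGGG holds 6 of them, and the part of base composition in these shares was not tested. The motifs have no stretch in common that would let them overlap.

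By family, 15 of 23 OR51 genes (65.2%) lay in H3K27me3 in Clone 3, in Clone 6 and in the shared set. Of the OR52 genes, 25 of 27 (92.6%) did in Clone 3 and 24 (88.9%) in Clone 6 and in the shared set. The 7 OR56 genes did in all 3 sets. The 8 OR51 genes outside were all in the central gap. The 57 members fall into 30 subfamilies by the letter after the number, 16 of which have a single member. Of the 14 with 2 or more members, 11 had every member in H3K27me3 in both clones and 2 had every member in neither, OR51B with 4 genes and OR51I with 2. OR52B was the exception, with OR52B6 and OR52B2 in both clones and OR52B4 in Clone 3 alone. No subfamily mixed members in both clones with members in neither. Neighbouring members share domains and the OR51B and OR51I genes all lie in the central gap, so subfamily and position were not separated here. OR52E spans separate domains, with OR52E2 and OR52E1 in the first block and OR52E6, OR52E8, OR52E4 and OR52E5 in the last.

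OR51E1 and OR51E2 are the class I receptors best known for expression outside the nose, among other tissues in the prostate. Both lay in H3K27me3 in both clones. OR51E1 started 33.4 kb inside the Clone 3 domain and 249 kb inside the Clone 6 domain, and OR51E2 87.9 and 304 kb inside. Their gene records of 12069 and 17684 bp were fully covered in both clones. Their coding sequences had the highest CpG content of all members, 23.1 per kb in OR51E1 and 24.0 per kb in OR51E2.

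Coding sequences of the 46 members in both clones held a median of 10.3 CpGs per kb (3.09 to 24.0), and the lowest was OR56B1. Those of the 10 members in neither clone held a median of 11.2 per kb (6.41 to 17.9), from OR51B2 to OR51Q1. OR52B4 had 10.6 per kb. The ranges overlap.

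Protein identity was used to check that the names hold together as a family. Among proteins translated from the canonical coding sequences, 56 of 57 members were closest to another class I member when compared with the other 56 and with 359 class II proteins. The exception was OR52P1, whose reference coding sequence reads 53 residues before a stop codon. For each member the median identity to the other class I proteins and to the class II proteins was taken. The medians of these values over the members were 42.2% and 28.6%. The median protein length was 315 residues. The closest pairs were OR51A4 and OR51A2 at 96.8%, OR52I2 and OR52I1 at 95.1%, OR52K2 and OR52K1 at 90.8% and OR52E6 and OR52E8 at 89.1%, each pair adjacent and in H3K27me3 in both clones. Short reads from such near-identical copies may not be placed uniquely, and how the authors treated these reads is not given in the sources used here.

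Of the 57 members, 52 had the same H3K27me3 status by clone as the class I member closest to them, which for OR52P1 rests on the short translation alone. Since 46 of the 57 members share the status of both clones, most pairs of members would have the same status whatever their relation. For 20 members that closest class I member was a direct neighbour in the order of gene-record starts. That order puts OR51B5 6 steps from OR51B6, although the canonical start of OR51B5 lies between the starts of OR51B2 and OR51B6. In the central gap the pairs OR51B6 and OR51B5 (69.6%) and OR51I1 and OR51I2 (59.9%) were each other's closest relatives. Of the 10 members in neither clone, 6 had a closest relative also in neither. The 4 that did not were OR51M1, OR51Q1, OR52D1 and OR52W1, whose closest relatives OR51G1, OR51G2, OR52E8 and OR52L1 lay in H3K27me3 in both clones.

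Annotated pseudogenes with the same name pattern number 45 and all lie on chromosome 11. In Clone 3, 39 of them (86.7%) started in an H3K27me3 domain, and in Clone 6 and in the shared set 38 (84.4%). None lay in H3K9me3. These shares stand beside 82.5% and 80.7% for the protein-coding members, which share the same domains. The matching share of all annotated pseudogenes is not given here.

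Other protein-coding genes start between the receptors, 17 in the span. Of these, 6 (35.3%) lay in H3K27me3 in Clone 3, 7 (41.2%) in Clone 6 and 5 (29.4%) in the shared set, and 0 in H3K9me3. They include 6 TRIM genes, ubiquitin ligases known for antiviral and antibody-dependent defence, 5 beta-globin genes, MMP26 and UBQLNL.

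In Clone 3, 3 of the gaps between H3K27me3 domains held starts of TRIM genes. The 15-kb Clone 3 gap before OR51D1 held the start of TRIM68, 1.77 kb outside a Clone 3 domain, while Clone 6 had no gap there and TRIM68 lay 214 kb inside. The 20-kb Clone 3 gap after OR52B4 held the start of TRIM21, 9.3 kb from an edge in Clone 3 and 0.299 kb in Clone 6. The gap between the middle and last blocks, 105 kb in Clone 3 and 98 kb in Clone 6, held no member and the starts of TRIM6, 11.1 and 6.11 kb outside in Clone 3 and Clone 6, and TRIM34, 34.8 and 29.8 kb outside. TRIM22 began 0.391 kb outside the Clone 3 domain and 1.61 kb inside the Clone 6 domain, so its status rests on less than the difference of the 2 edges, which is 2 kb. TRIM5 was inside in both clones by its gene record but outside by its canonical start, 4.93 kb from the Clone 3 edge and 2.93 kb from the Clone 6 edge. By canonical start the TRIM genes inside numbered 0 in Clone 3 and 2 in Clone 6.

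MMP26, a matrix metalloproteinase gene that overlaps several receptors, started 94.8 kb inside the Clone 3 domain and 311 kb inside the Clone 6 domain. UBQLNL, a ubiquilin-like gene, lay in the central gap, 3.57 kb from an edge in both clones. The 5 beta-globin genes encode subunits of haemoglobin and sit inside the class I cluster. By gene record, 3 of them started in H3K27me3 in every H3K27me3 set and the other 2 in the central gap. The records of these 2 extend far upstream of their canonical starts, as for OR51B5. By canonical start the count was 4 in Clone 3 and 3 in Clone 6. The gene behind this difference lay 0.22 kb inside the Clone 3 edge and 0.781 kb outside the Clone 6 edge. These edges differ by 1 kb, the resolution of the coordinates, so its status rests on that difference. HBD, 11.3 kb inside in Clone 3 and 10.3 kb in Clone 6, lay in the stretch between OR51V1 and the gap.

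The genes with which receptors work were looked up in the same sets. Of 17 genes for olfactory signalling, receptor transport and receptor choice, 6 started in H3K27me3 in Clone 3, 7 in Clone 6 and 5 in the shared set, where the shares of all protein-coding genes were 6.44%, 7.97% and 5.32%. In H3K9me3 it was 0 of 17 in either set, against 3.35% and 3.24% of all genes. The 5 in both clones were GNAL, the olfactory G protein subunit (33.3 kb inside in Clone 3 and 43.3 kb in Clone 6), CNGA2, a subunit of the transduction channel (133 and 127 kb), ANO2, a calcium-activated chloride channel (12.8 and 9.77 kb), and the transcription factor genes EBF1 (53.1 and 52.1 kb) and EMX2 (42.4 and 76.4 kb). RTP2, a receptor transporter, was inside in Clone 3 alone, by 2.44 kb. LHX2, a homeodomain factor of receptor choice, and STOML3 were inside in Clone 6 alone, by 7.67 and 5.14 kb. ADCY3, CNGB1, OMP and the 6 genes CNGA4, LDB1, REEP1, RIC8B, RTP1 and SLC24A4 were outside in both clones. CNGA4, which lies beyond OR52W1, was 1.24 kb outside a Clone 6 domain by its gene record and inside that domain by its canonical start.

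CpG content was described because low-density CpGs, here those at least 20 bp from the next CpG in both directions, are 1 of the CpG classes that the study compares. The cluster span held 6.93 CpGs per kb at 38.8% GC, with 66.6% low-density CpGs. Chromosome 11 as a whole held 9.91 per kb at 41.5% GC, with 53.1% low-density. H3K27me3 domains of chromosome 11 held 7.79 per kb with 63.0% low-density in Clone 3 and 8.81 per kb with 59.4% in Clone 6, so the cluster held fewer CpGs per kb than these domains as a whole.

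Within the span, the 1373 kb in H3K27me3 in both clones held 6.55 CpGs per kb and 68.5% low-density CpGs. The 389 kb in neither clone held 8.12 per kb and 61.5%. The central gap alone held 6.57 per kb at 39.3% GC with 71.2% low-density CpGs, close to the marked sequence, and the 122 kb in neither clone outside it held 11.5 per kb with 49.3%. The gap with TRIM6 and TRIM34 held 12.3 per kb with 47.3%. The 9 unmarked receptors of the central gap thus lay in sequence with about the CpG content of the marked receptors, and the gap at the TRIM genes was richer in CpGs.

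**Figure D4:**
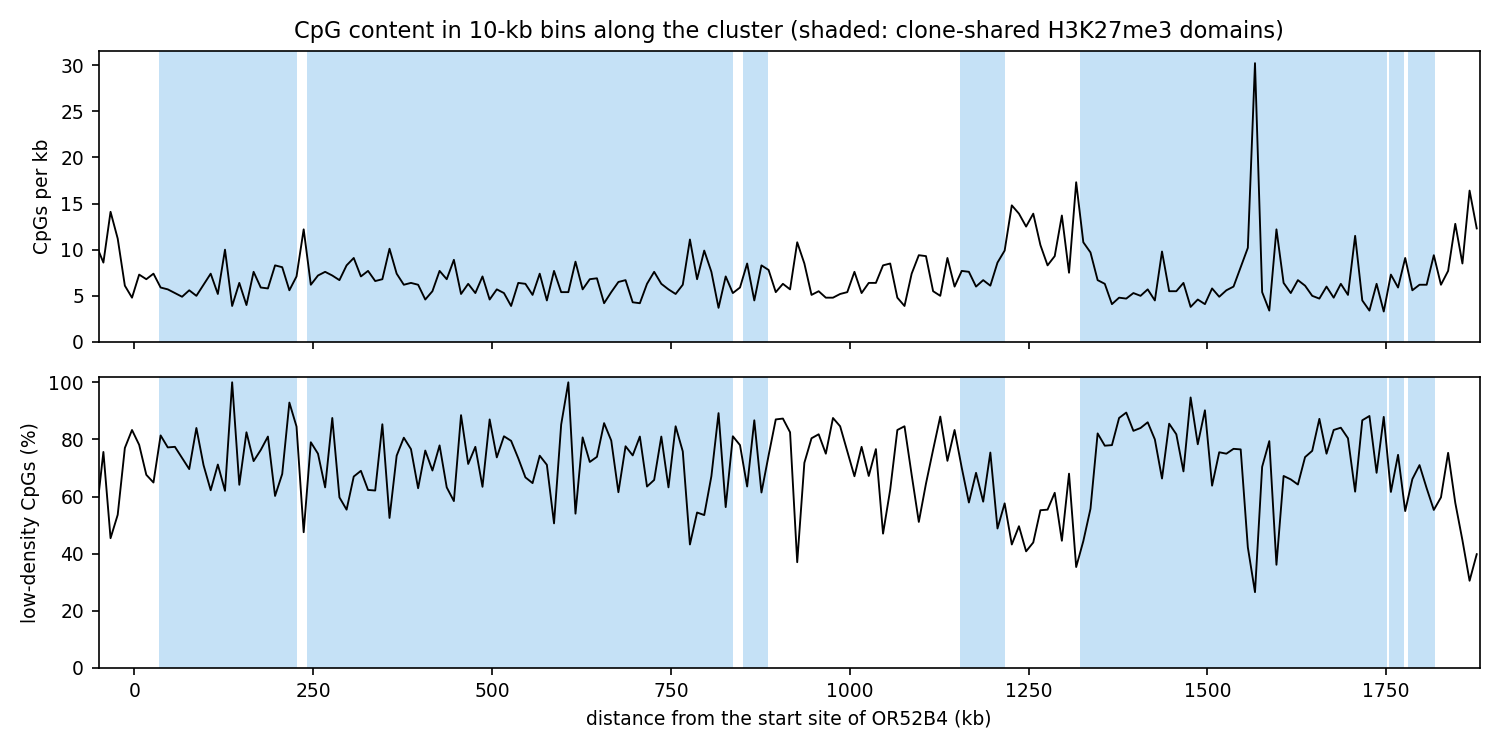
CpGs per kb (upper panel) and percent low-density CpGs (lower panel) in 10-kb bins along the cluster, against distance from OR52B4 in kb, with clone-shared H3K27me3 domains shaded. The highest bin, 30.2 CpGs per kb, lies inside the last block at 1566.614 kb, and the unshaded central gap stays near the level of the shaded blocks while the gap beside the TRIM genes rises above it.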

How the data were processed

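Domain coordinates of H3K9me3 and H3K27me3 ChIP-seq in uninduced HCT116 shUHRF1 cells were analysed. The authors trimmed reads with Trim Galore 0.5.0, aligned them to hg38 with Bowtie2 2.3.5, removed duplicates, called broad domains with Enriched Domain Detector at its default parameters and kept domains shared by replicates. The deposited clone sets give chromosome, start, end and 2 scores per domain, and the deposited clone-shared sets give coordinates only. The score is the authors' value on an unnamed scale and was used for description and ranks.

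Gene start sites came from GENCODE 44, with BED starts read as 0-based and the mitochondrial genome left out. Coverage, distances, CpGs and motifs were computed in Python 3.11.15 with numpy 2.4.6 and pandas 2.3.3. Proteins were translated from canonical coding sequences and aligned globally in Biopython 1.88 (BLOSUM62, gap opening 11, extension 1). The interval procedures were tested on simulated data. No statistical test was run, because each set combines its replicates and neighbouring genes share domains. The named genes were the first and last member, members that differed between clones or lay within 25 kb of an edge, OR51E1, OR51E2 and the other genes that start in the span, with the beta-globin genes given as a group and an item withheld from the text not reported here. Domains named in the text, the printed promoters and the closest protein pairs were added. The members and gene lists were chosen with earlier results of these data known. Alternatives were other start definitions, gene bodies, a 10-kb margin, domains of at least 100 kb, the upper 50% of domains by the lower score, 1-based starts and a span widened by 100 kb. DNA methylation and H3K9me3 of Clone 6 alone were not analysed here.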

Additional observations from a re-analysis of the deposited data

How the results depend on the processing

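Neither the number of members in H3K27me3 nor the covered share of the span moved by more than 1.5 times, although counts this close to 57 have no room to rise that far. The number of members in a Clone 3 H3K27me3 domain ranged from 43, with domains of at least 100 kb, to 47, and was 44 with the upper 50% of domains by score. In Clone 6 it ranged from 44 to 46 and in the clone-shared set from 43 to 46. In both H3K9me3 sets it was 0 under every alternative run, and with the nearest domain 14.7 Mb away none of these alternatives could have changed it. Coverage of the span ranged from 66.5% to 75.8% in Clone 3, 73.3% to 77.9% in Clone 6 and 66.5% to 75.0% in the shared set. Domains of at least 100 kb leave out OR52H1 and OR52B6 in every H3K27me3 set, OR52B2 in Clone 3 and the shared set, and OR52B4 in Clone 3. Among the other genes of the span, the canonical start took the TRIM genes in Clone 3 H3K27me3 from 1 to 0. No paired analysis was possible because the deposited sets combine the replicates and no result comes from a test.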
